A study of Homo sapiens with 18 samples.

Results

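The 39 genes described here were chosen by name, with earlier results of these data known, as the hypoxia response and glycolysis genes of MDA-MB-231 spheroids. All 39 were found among the 21411 genes of the deposited tables and passed the filter on low values in every comparison. They are 2 HIF alpha subunits (HIF1A and EPAS1), 16 genes known as targets of hypoxia-inducible factors (HIFs) and 21 glycolytic genes, which comprise 3 transporters, 15 enzymes and 3 kinases that set the flux into and out of the pathway. MDA-MB-231, an established triple-negative breast cancer cell line, was grown in 3D Matrigel for 7 days from 50000 seeded cells, and polyadenylated RNA was sequenced in 18 libraries, 3 from each of 6 conditions. The study asked what the cancer cells' own Jagged1, a membrane-bound ligand of Notch receptors, does to their transcriptome. Jag1WT is the parental line with no change of JAG1. Jag1KO pools several clones of that line, each grown from 1 cell after Cas9 had cut JAG1. The groups Jag1KO + rescue and Jag1KO + ctrl are Jag1KO cells that carry a plasmid, with Jagged1 cDNA or empty, under G418 selection. The siCtrl and siJag1 cells are Jag1WT cells transfected with a nontargeting siRNA or with siRNAs against JAG1 just before seeding. All 6 conditions thus share the line, the Matrigel culture and the time point, whereas plasmid carriage and G418 are shared only by the rescue pair and transfection only by the siRNA pair. The labels name the replicates as biological without naming separate clones or cell batches, so p-values measure the spread between these cultures.

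HIFs are dimers of an oxygen-sensitive alpha subunit with ARNT. With oxygen, the prolyl hydroxylases of the EGLN family mark the alpha subunit for degradation through VHL. With little oxygen it accumulates, binds DNA at short elements with the core ACGTG or GCGTG and raises genes for pH control, angiogenesis, mitophagy and glycolysis. Because this control acts on the protein, the mRNA of HIF1A or EPAS1 does not report how active HIF is. Glycolysis turns glucose into pyruvate and, through lactate dehydrogenase, lactate, and many tumor cells run it at a high rate whether or not oxygen is short.

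The core was looked for as ACGTG and as GCGTG on both strands of the RefSeq promoter window (GRCh38.p14, 250 bases before to 50 bases after the start site), and 34 of the 39 members had a window. A CACGTG reads as ACGTG on each strand and was counted as 2 matches. ACGTG stood in 7 of 12 windows of HIF targets (58.3%), in 8 of 20 windows of glycolytic genes (40%) and in neither window of the alpha subunits, against 21.6% of 27305 promoters of all genes and 27.2% of the 10219 promoters of genes above 1 CPM on average in these libraries. Either core stood in 10 of 12 HIF target windows (83.3%) and in 14 of 20 glycolytic windows (70%), against 48.4% of all promoters and 63.5% of those of expressed genes. A match is a description of letters and does not show that a factor binds there. NDRG1, whose levels differed widely between libraries, had no window. Capitals mark ACGTG on either strand in the stretches of 60 bases below. These stretches are examples from members with ACGTG before the start site, not a ranking by differences between libraries. They are the stretches of CA9 (chr9:35673868-35673927, plus strand), ALDOC (chr17:28577086-28577145, minus strand), ENO2 (chr12:6914434-6914493, plus strand), BNIP3 (chr10:131982025-131982084, minus strand), PGK1 (chrX:78104037-78104096, plus strand) and LDHA (chr11:18394462-18394521, plus strand), each written 5′ to 3′ in the direction of its gene.
CA9: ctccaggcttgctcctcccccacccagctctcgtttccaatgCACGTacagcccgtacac
ALDOC: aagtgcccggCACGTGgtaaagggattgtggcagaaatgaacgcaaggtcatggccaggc
ENO2: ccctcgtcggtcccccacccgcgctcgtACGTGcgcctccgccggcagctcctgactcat
BNIP3: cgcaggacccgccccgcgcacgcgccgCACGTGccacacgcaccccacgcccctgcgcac
PGK1: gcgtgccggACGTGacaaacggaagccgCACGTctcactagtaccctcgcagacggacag
LDHA: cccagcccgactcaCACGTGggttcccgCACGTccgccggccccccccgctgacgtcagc
LDHA held 5 ACGTG matches in its window, 3 of them in the stretch shown, and ALDOC and PGK1 held 3 each. The windows of CA12, PFKL and PFKFB4 held GCGTG but no ACGTG, and those of EGLN3 and PGAM1 held neither, although the levels of all 5 genes differed widely between libraries as described below.

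Between 10330581 and 18327890 reads per library were counted on genes, and the values below are the deposited TMM-normalized CPM, counts scaled to library size. JAG1 itself read 433, 585 and 522 CPM in Jag1WT against 116, 205 and 149 CPM in Jag1KO. It read 534, 657 and 646 CPM in Jag1KO + rescue and 110.2, 134 and 147 CPM in Jag1KO + ctrl, and 441, 626 and 531 CPM in siCtrl and 166, 203 and 131 CPM in siJag1. The targeted mRNA was thus lower in every library of the JAG1-depleted group of each pair, and reads on JAG1 remained in the edited cells. The genes VIM (2184 to 4946 CPM), CD44 (396 to 559 CPM) and MSN (1298 to 2249.8 CPM), which mark this mesenchymal-like line, were abundant in all libraries. Of the genes that should be low in this line, ESR1 had at most 2 reads, CDH1 17 and PGR 26 in a library, and of the leukocyte, endothelial and fibroblast genes PTPRC, CD3E, CDH5, DCN and LUM had at most 4 and PDGFRB 20. EPCAM read 5.18 to 8.99 CPM and PECAM1 0.954 to 15.1 CPM. Replicates 1 and 2 of Jag1KO + ctrl stood apart from all other libraries in many, but not all, of the genes described here. Replicate 2 was the lowest library of its condition for 6 of the 16 HIF targets. The comparisons that use Jag1KO + ctrl are given below both with replicates 1 and 2 and with replicate 3 alone.

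HIF1A and EPAS1 (HIF-2 alpha) were expressed in all libraries, HIF1A at a higher level. In RNA of whole cultures, fewer cells that express a gene and less RNA of it per cell cannot be told apart. Per kilobase of gene length HIF1A was 6.00 to 18 times as high as EPAS1 over the 18 libraries. EPAS1 (Entrez gene 2034) read 144, 137 and 124 CPM in Jag1WT against 103, 84.4 and 82.4 CPM in Jag1KO, 154, 105 and 107 CPM in Jag1KO + rescue against 70.0, 51.5 and 80.0 CPM in Jag1KO + ctrl, and 159, 144 and 146 CPM in siCtrl against 135, 76.7 and 126 CPM in siJag1. In each pair every library with more JAG1 lay above every library with less, and EPAS1 was the only member that separated the groups in 1 direction in all 3 pairs, which share no library. Of the 12553 genes tested in all 3, 36 (0.287%) were higher with more JAG1 in all 3, JAG1 among them, and 31 (0.247%) were lower. The log2 fold changes were 0.58 ± 0.12, 0.85 ± 0.22 and 0.42 ± 0.19 (standard error), but none passed the threshold, with edgeR adjusted p = 0.0893, 0.105 and 0.970. In the parental pair the adjusted p was 0.00440 with DESeq2, and EPAS1 then missed a call by its fold change, which was just under 1.5. In the siRNA pair with same-numbered libraries blocked, neither alpha subunit was called, and the lower of their adjusted p was 0.554 (edgeR). Within the JAG1-depleted groups EPAS1 was low in siJag1 replicate 2 and in Jag1KO + ctrl replicates 1 and 2, the 3 libraries with the highest mean expression of S and G2/M genes, whose values are given at the end, and the part of the cell cycle in its level was not tested.

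HIF1A (Entrez gene 3091) read 946, 1256 and 882 CPM in Jag1WT against 773, 1044 and 953 CPM in Jag1KO. In the rescue pair it read 775, 833 and 679 CPM with Jagged1 cDNA and 533, 519.9 and 695 CPM with the empty plasmid, and in the siRNA pair 941, 1364 and 1222 CPM in siCtrl and 1064, 1158 and 1172 CPM in siJag1. Its groups overlapped in all 3 pairs, with log2 fold changes of 0.15 ± 0.17, 0.38 ± 0.18 and 0.06 ± 0.15. Both alpha subunits had their lowest group mean in Jag1KO + ctrl, at 583 ± 97.6 CPM for HIF1A and 67.2 ± 14.4 CPM for EPAS1 (SD, n = 3), the condition in which most HIF targets had their highest.

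**Figure D1:**
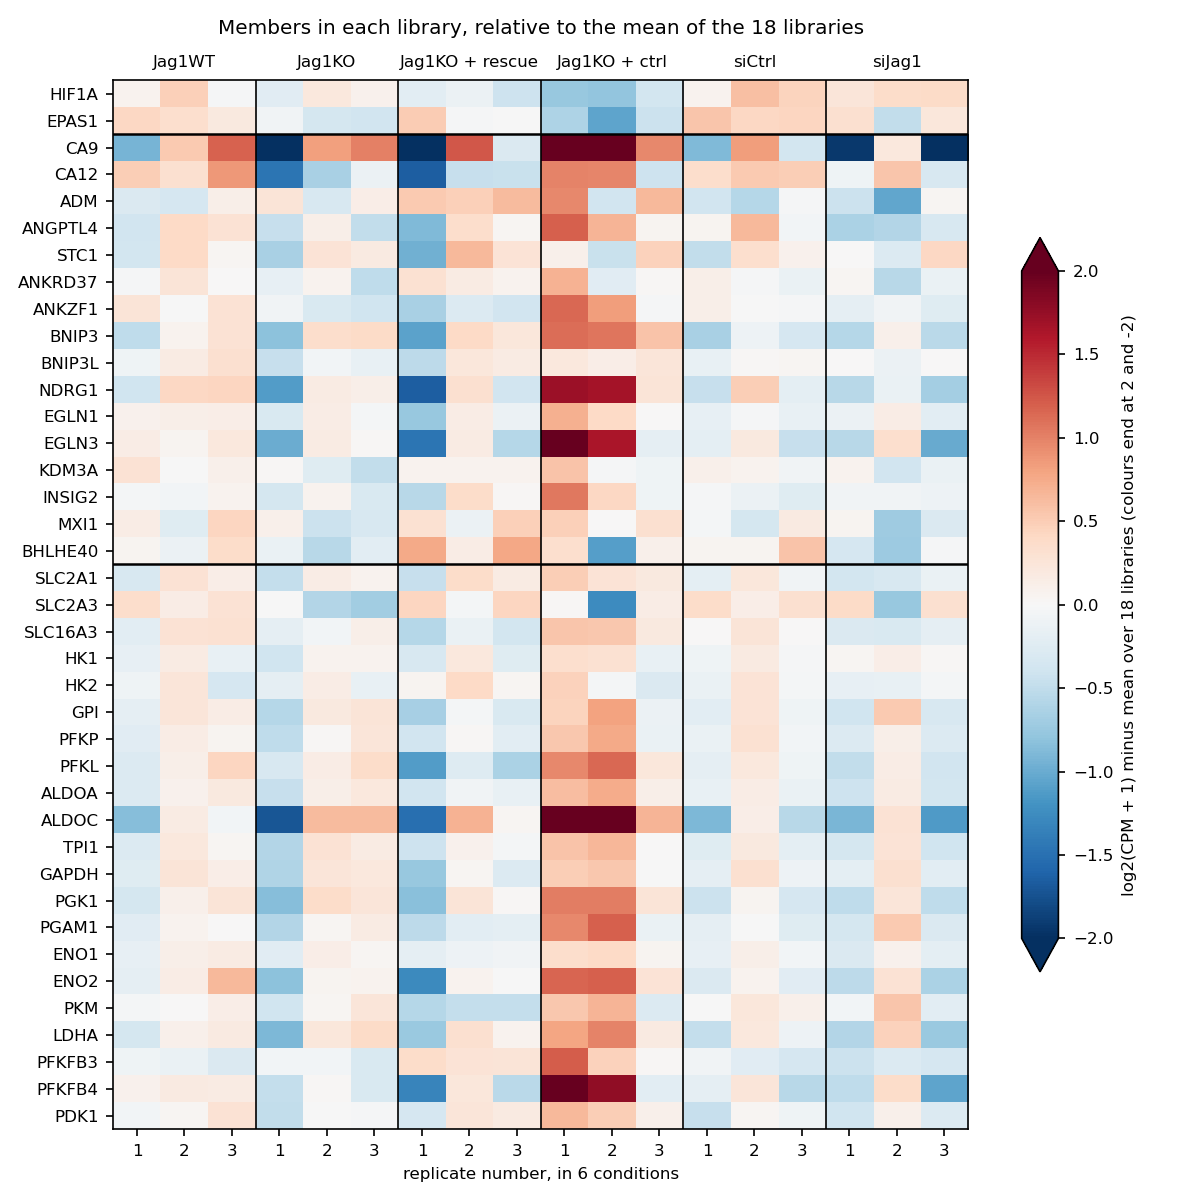
Each cell is log2(CPM + 1) of a gene in a library minus its mean over the 18 libraries, for the HIF alpha subunits (top), HIF targets (middle) and glycolytic genes (bottom), with libraries grouped by condition and colours ending at 2 and −2. Replicates 1 and 2 of Jag1KO + ctrl are high for most genes of both lists and low for HIF1A and EPAS1, while replicate 3 is near the other conditions, and replicate 1 of Jag1KO and of Jag1KO + rescue is low for many.

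The 16 HIF targets were detected in every library. The lowest value of any of them was 0.341 CPM of CA9 in Jag1KO + rescue replicate 1, which rests on 5 reads. Per kilobase, STC1 (median 215 CPM per kilobase), NDRG1 (162) and BNIP3 (148) were the most abundant, and EGLN3 (3.36), CA12 (4.67), ANGPTL4 (5.12) and ANKRD37 (5.92) the least. The SD between replicates, pooled over the 6 conditions on the log2(CPM + 1) scale, had a median of 0.417 over the HIF targets and 0.334 over the glycolytic genes, against 0.221 over the 12757 genes above 1 CPM in 9 or more libraries. Replicates therefore differed more in these genes than in most, and the differences between conditions have to be read against that spread.

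CA9 (Entrez gene 768), a cell-surface carbonic anhydrase that exports acid and is widely used as a marker of hypoxia, varied the most. It read 6.82, 20.3 and 32.5 CPM in Jag1WT against 1.11, 25.2 and 28.9 CPM in Jag1KO. The value was 0.341, 34.1 and 11.1 CPM in Jag1KO + rescue and 136, 112 and 28 CPM in Jag1KO + ctrl, and 7.07, 25.6 and 10.4 CPM in siCtrl and 2.89, 16.1 and 2.10 CPM in siJag1. Outside Jag1KO + ctrl, replicates of 1 condition differed more than the condition means did, and the pooled replicate SD was 1.61 on the log2(CPM + 1) scale. CA12 (Entrez gene 771), another membrane-bound carbonic anhydrase, read 25.7, 22.6 and 33.6 CPM in Jag1WT against 5.87, 11.1 and 16.3 CPM in Jag1KO, so that all Jag1WT libraries were above all Jag1KO libraries. It read 5.04, 12.8 and 12.9 CPM in Jag1KO + rescue and 36.8, 36.0 and 13.2 CPM in Jag1KO + ctrl, and 23.1, 26.1 and 25.7 CPM in siCtrl and 16.7, 26.8 and 14.2 CPM in siJag1. CA12 thus had a higher mean with JAG1 in the parental pair and a lower one in the rescue pair.

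NDRG1 (Entrez gene 10397), a stress-response gene, was highest in Jag1KO + ctrl, where it read 2528, 2462 and 923 CPM. Jag1KO + rescue held 246, 966 and 596 CPM of it. The parental pair held 591, 1038 and 1040.0 CPM in Jag1WT against 357, 868 and 839.7 CPM in Jag1KO, and the siRNA pair 561, 1092 and 674 CPM in siCtrl and 529, 709 and 483 CPM in siJag1. EGLN3 (Entrez gene 112399), a prolyl hydroxylase through which HIF feeds back on itself, read 53.7, 29.6 and 7.76 CPM in Jag1KO + ctrl and 2.59, 10.1 and 5.69 CPM in Jag1KO + rescue. The parental pair held 9.91, 9.25 and 10.4 CPM of EGLN3 in Jag1WT against 3.98, 10.1 and 9.08 CPM in Jag1KO, and the siRNA pair 7.64, 10.3 and 6.17 CPM in siCtrl and 5.73, 11.4 and 3.92 CPM in siJag1. Both genes were thus high in the same 2 libraries, and the third Jag1KO + ctrl library lay within the range of the other conditions. EGLN1, the hydroxylase that sets HIF levels in most cells, moved less, between 45.4 and 128 CPM over all libraries, and EGLN1 was 0.913 to 6.73 times as high as EGLN3 per kilobase, the lowest ratio being that of Jag1KO + ctrl replicate 1.

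Among the remaining HIF targets, ANGPTL4 (Entrez gene 51129), a secreted regulator of lipoprotein lipase, read 7.20, 13.1 and 12 CPM in Jag1WT against 6.72, 10.6 and 6.59 CPM in Jag1KO. Jag1KO + rescue gave 4.77, 12.6 and 10.0 CPM and Jag1KO + ctrl 23.4, 16.1 and 10.0 CPM, while siCtrl gave 10.1, 15.6 and 9.29 CPM and siJag1 5.90, 6.11 and 7.55 CPM. ANKZF1 (Entrez gene 55139), which takes part in clearing stalled ribosome products, read 37.3, 30.7 and 38.2 CPM in Jag1WT against 29.6, 24.9 and 23.3 CPM in Jag1KO. In Jag1KO + rescue it was at 19.4, 25.5 and 23.6 CPM, in Jag1KO + ctrl at 69.7, 56.3 and 30.5 CPM, in siCtrl at 33.9, 31.0 and 30.6 CPM and in siJag1 at 27.3, 29.5 and 25.9 CPM. ANKZF1 separated the groups in all 3 pairs, but downwards in Jag1KO + rescue against Jag1KO + ctrl and upwards in the other pairs. BHLHE40 (Entrez gene 8553), a transcriptional repressor, read 175, 154 and 216 CPM in Jag1WT against 153, 114 and 145 CPM in Jag1KO. In the rescue pair it read 283, 186 and 286 CPM with Jagged1 cDNA and 213, 77.4 and 180.1 CPM with the empty plasmid, and in the siRNA pair 175, 174 and 249 CPM in siCtrl and 133, 101 and 165 CPM in siJag1. Its mean was higher with JAG1 in all 3 pairs, and unlike CA9 or NDRG1 it was not high in Jag1KO + ctrl, whose replicate 2 held its lowest value.

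MXI1 (Entrez gene 4601), an antagonist of MYC, read 77.9, 59.2 and 94.7 CPM in Jag1WT against 75.3, 51.9 and 56.0 CPM in Jag1KO. The value was 87.4, 64.5 and 98.6 CPM in Jag1KO + rescue and 98.2, 70.8 and 87.9 CPM in Jag1KO + ctrl, and 68.5, 55.0 and 79.5 CPM in siCtrl and 73.2, 42.5 and 57.4 CPM in siJag1, and its groups overlapped in all 3 pairs. ANKRD37 (Entrez gene 353322), an ankyrin repeat gene, read 6.82, 8.42 and 6.98 CPM in Jag1WT against 6.07, 7.34 and 4.59 CPM in Jag1KO. Jag1KO + rescue gave 8.72, 7.85 and 7.33 CPM and Jag1KO + ctrl 11.9, 5.75 and 7.04 CPM, while siCtrl gave 7.57, 6.81 and 6.24 CPM and siJag1 7.14, 4.38 and 6.22 CPM, also with overlap. The mitophagy receptor BNIP3 ranged from 108 to 491 CPM over the 18 libraries, and its paralog BNIP3L from 189 to 339.6 CPM. The secreted peptides STC1 (404 to 1230.2 CPM) and ADM (19.6 to 81.5 CPM) did not have their highest mean in Jag1KO + ctrl. The histone demethylase KDM3A (65.4 to 139 CPM) and the sterol regulator INSIG2 (27.2 to 85.3 CPM) completed the list.

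**Figure D2:**
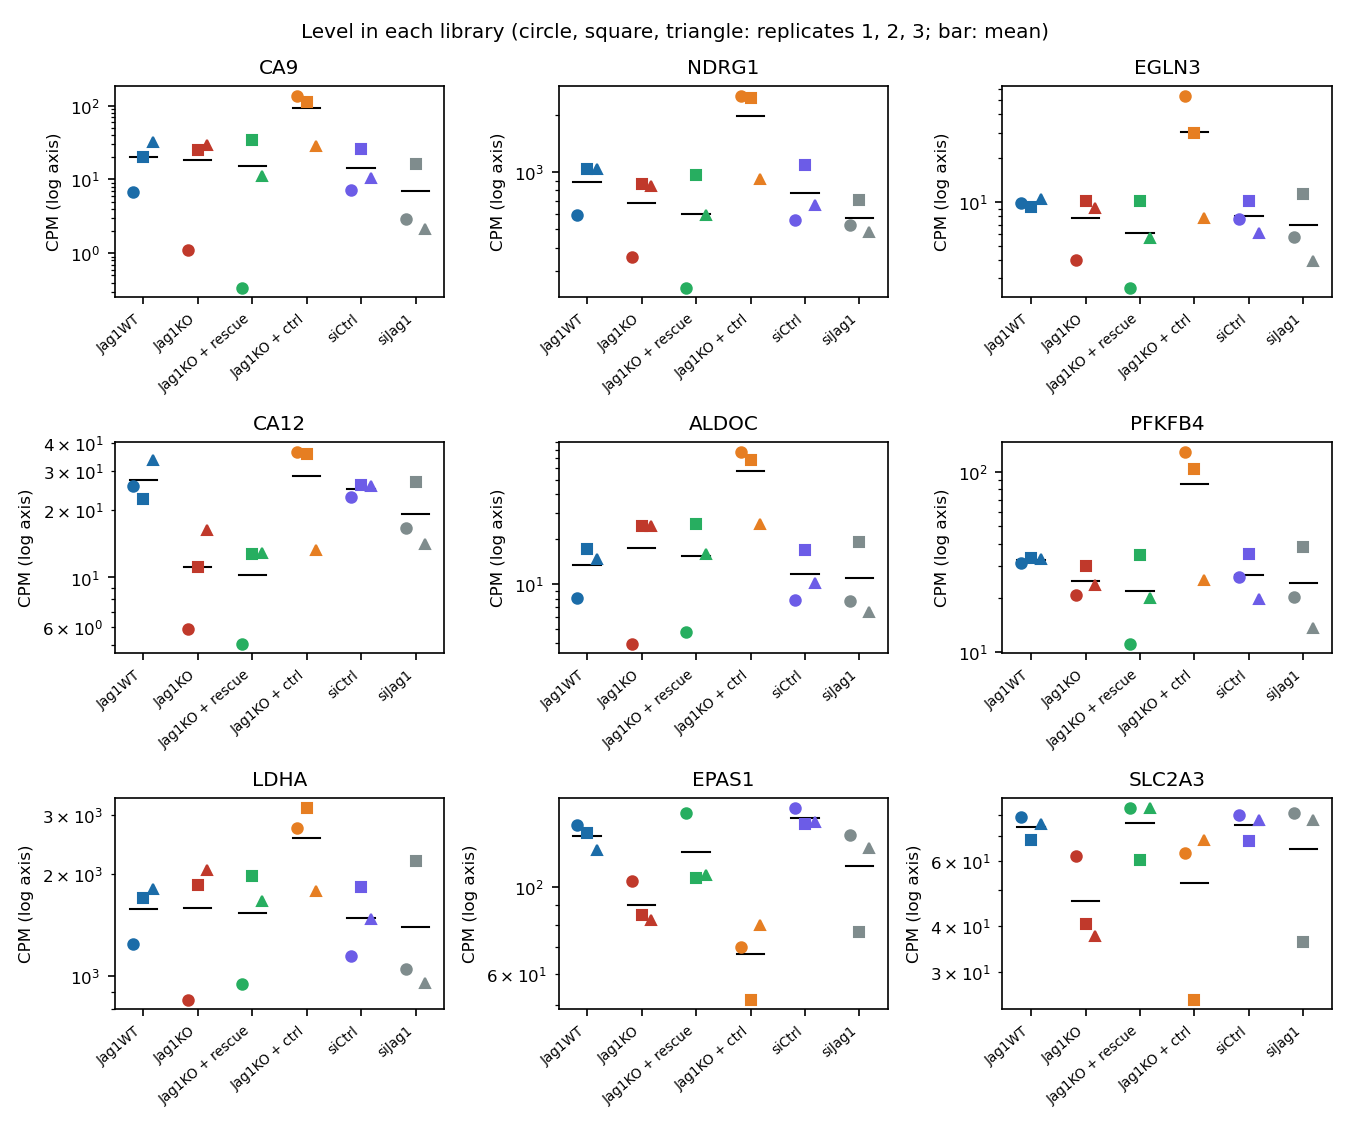
CPM of 9 members on log axes in each of the 18 libraries, with symbols for replicates 1 to 3, colours for conditions and a bar at each mean. In CA9, NDRG1, EGLN3, ALDOC and PFKFB4 the values of Jag1KO + ctrl replicates 1 and 2 lie above all 16 others, and EPAS1 shows the opposite order, with Jag1KO + ctrl at the bottom.

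No HIF target was called in any of the 3 comparisons of more against less JAG1 (edgeR, adjusted p below 0.05 and a fold change above 1.5, adjusted over all genes tested). In Jag1WT against Jag1KO, where 0.714% of 12879 genes were called, 14 of 16 HIF targets had a higher mean in Jag1WT. Their median log2 fold change was 0.34, against −0.01 over all genes. CA12 had the largest, 1.30 ± 0.34 (adjusted p = 0.238), followed by ANKZF1 (0.44 ± 0.15) and ANGPTL4 (0.43 ± 0.29). The unadjusted p was below 0.05 for 4 of 16 (CA12, ANKZF1, BHLHE40 and KDM3A), all higher in Jag1WT, against 4.32% of all genes in that direction. The groups did not overlap upwards for CA12, ANKZF1 and BHLHE40, against 7.24% of all genes, and downwards for none, against 6.58%. CA12 alone was called by DESeq2 (adjusted p = 0.00807), which called 0.901% of all genes higher. With same-numbered libraries blocked, edgeR also called CA12 alone of the list, and 145 of 12879 genes higher. The unadjusted p was then below 0.05 for 7 of 16, against 1064 genes in that direction. Without Jag1KO replicate 1, in a fit with no block, the list's median was 0.16, with 12 of 16 higher. Also without this library, which was low for CA9, CA12, NDRG1 and ALDOC, CA12 and EPAS1 were called with log2 fold changes of 0.99 and 0.68 (adjusted p = 0.0252 and 0.00582), as were 2.6% of all genes in that direction.

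In siCtrl against siJag1, where 0.0157% of 12774 genes were called, 12 of 16 HIF targets had the higher mean in siCtrl, with a median log2 fold change of 0.20 against −0.01 over all genes. The largest was that of CA9, at 1.01 ± 0.78, whose groups overlapped. ANGPTL4 (0.85 ± 0.24), BHLHE40 (0.59 ± 0.21) and ANKZF1 (0.21 ± 0.12) did not overlap, all 3 higher in siCtrl, against 5.15% of all genes in that direction and 5.32% in the other. ANGPTL4 and BHLHE40 had an unadjusted p below 0.05, against 2.6% of all genes higher at that level, and every adjusted p of the list was at least 0.970. This fit leaves the pairing by replicate number out. With same-numbered libraries blocked, the median was 0.23, again with 12 of 16 higher. The unadjusted p was then below 0.05 for 4 of 16, against 639 of 12774 genes in that direction. The lowest adjusted p of the list was 0.230 (edgeR). DESeq2, limma and the blocked fit called no member in this pair. Without siJag1 replicate 2, with no block, 7 of 16 had an unadjusted p below 0.05 (edgeR), against 481 of 12774 genes higher. The median was then 0.15 and the lowest adjusted p of the list 0.189. Without any other 1 library, 1 to 3 of 16 had an unadjusted p below 0.05. JAG1 itself, the target of the siRNA, was at 1.68 ± 0.19 and also missed a call in the main fit (edgeR adjusted p = 0.111). The absence of a call in this pair thus does not show that the members were unchanged.

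In Jag1KO + rescue against Jag1KO + ctrl most HIF targets lay the other way, lower in the rescue. Their median log2 fold change was −0.25 with replicate 3 as the only Jag1KO + ctrl library and 0.15 with Jag1KO as the baseline. Both alternatives were chosen after seeing the data. With all libraries of the pair, the mean was lower in the rescue for 13 of 16. The median was then −0.58 against −0.0024 over all genes, and only 0.00778% of 12850 genes were called. The log2 fold changes were −2.59 ± 1.10 for CA9, −2.31 ± 0.71 for EGLN3, −1.71 ± 0.54 for NDRG1, −1.49 ± 0.47 for CA12, −1.20 ± 0.29 for ANKZF1 and −0.96 ± 0.36 for BNIP3, with adjusted p between 0.104 and 0.157. These 6 had an unadjusted p below 0.05, against 16.4% of all genes lower and 14.4% higher at that level. The groups did not overlap downwards for CA12, ANKZF1 and BNIP3, against 16% of all genes. They stood apart upwards for none of the 16, against 16.5%. BHLHE40 had a higher mean in the rescue (0.67 ± 0.35), as in both other pairs.

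**Figure D3:**
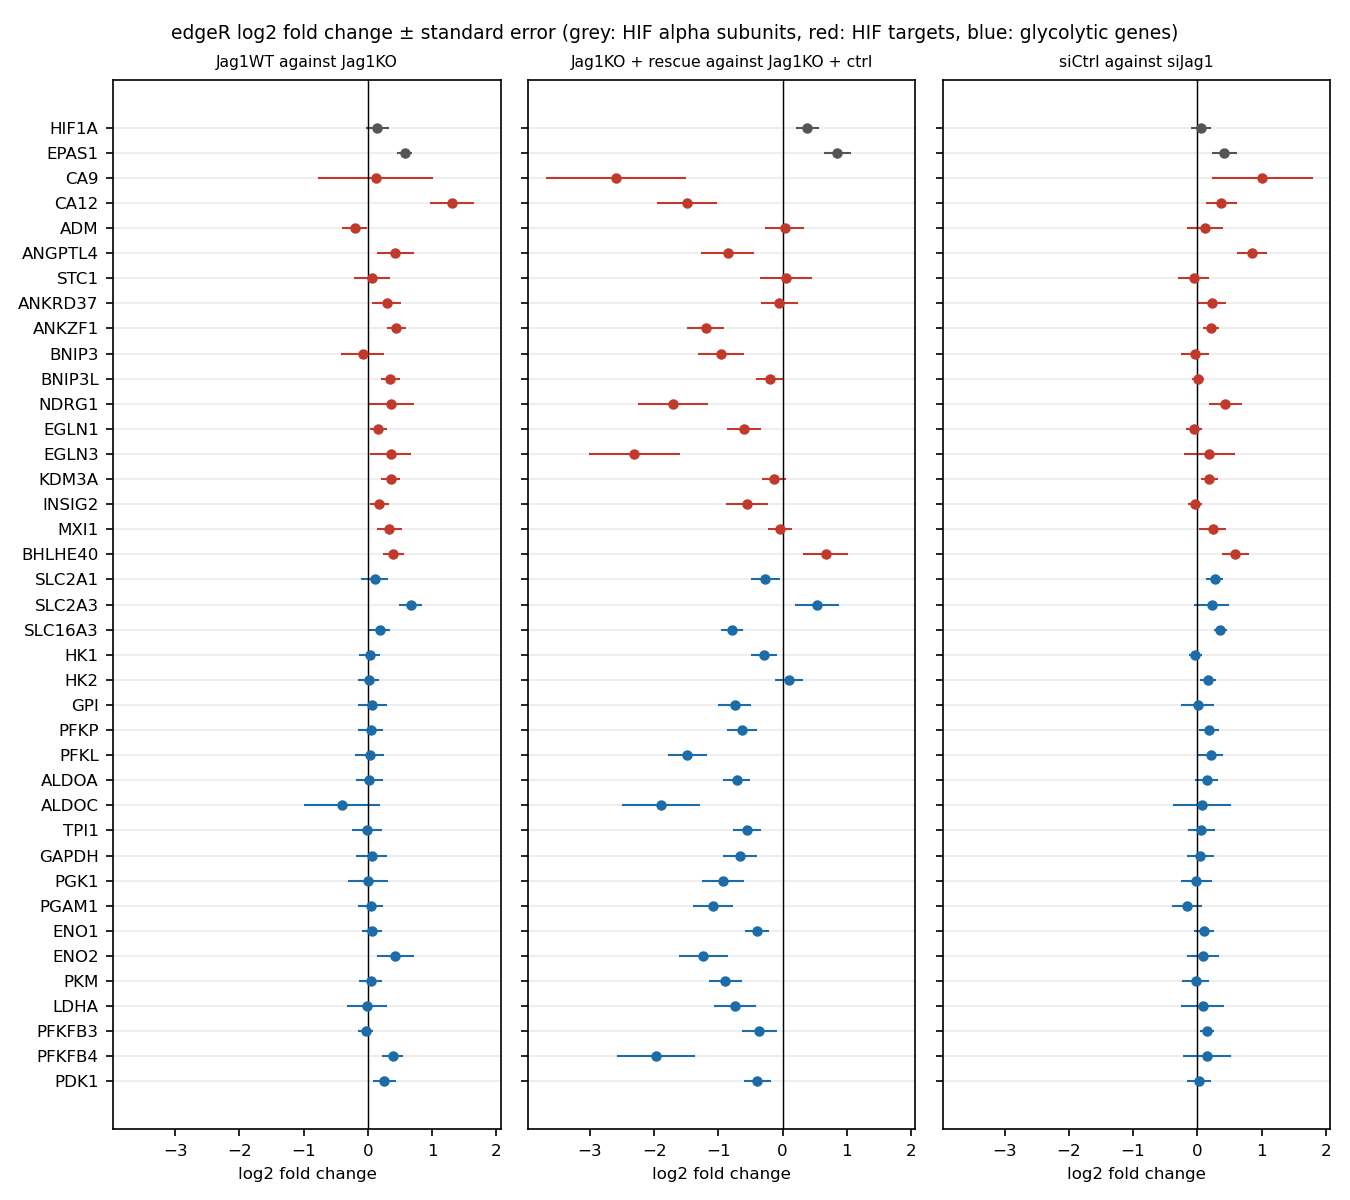
Log2 fold change with its standard error from edgeR for the 39 members in the 3 comparisons, each the group with more JAG1 over the group with less, with HIF alpha subunits in grey, HIF targets in red and glycolytic genes in blue. Most points lie near 0 in the parental and siRNA pairs and left of 0 in the rescue pair, down to −2.59 for CA9. EPAS1, HIF1A, BHLHE40, SLC2A3 and HK2 lie right of 0 in all 3.

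The glycolytic genes spanned the pathway with very unequal levels. Per kilobase, GAPDH was the most abundant, with a median of 1810.4 CPM per kilobase over the 18 libraries, followed by ENO1 (915), LDHA (685), PKM (681) and PGK1 (498), all enzymes of the later steps of the pathway. ALDOA (293), TPI1 (272) and PGAM1 (129.7) came next. The entry steps were lower, with SLC2A1, the GLUT1 transporter, at 122, PFKP at 73.4, HK1 at 44.8, GPI at 38.6 and HK2 at 20.2 CPM per kilobase. The flux kinases were low, with PFKFB3 at 12, PFKFB4 at 5.39 and PDK1, which restrains pyruvate entry into mitochondria, at 5.12, as was the isozyme ALDOC at 9.53. Only uniquely mapped reads were counted, so genes with processed copies may have lost reads, and RefSeq names 65 pseudogenes after GAPDH, 46 after BNIP3, 13 after PGAM1 and 6 after LDHA.

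In most pairs of isozymes or related genes 1 was higher in all libraries, and the lower one varied more. Per kilobase ALDOA was 9.97 to 92.2 times as high as ALDOC, and ENO1 15.5 to 59.3 times as high as ENO2, with the lowest ratio of both in Jag1KO + ctrl replicate 1. PFKP was 3.75 to 8.49 times as high as PFKL, again lowest in that library. HK1 and HK2 kept a narrower ratio, 1.62 to 2.68. PFKFB3 was 0.879 to 7.59 times as high as PFKFB4, and the order turned in Jag1KO + ctrl replicate 2. GLUT1 (SLC2A1) was 3.90 to 21.6 times as high as GLUT3 (SLC2A3).

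**Figure D4:**
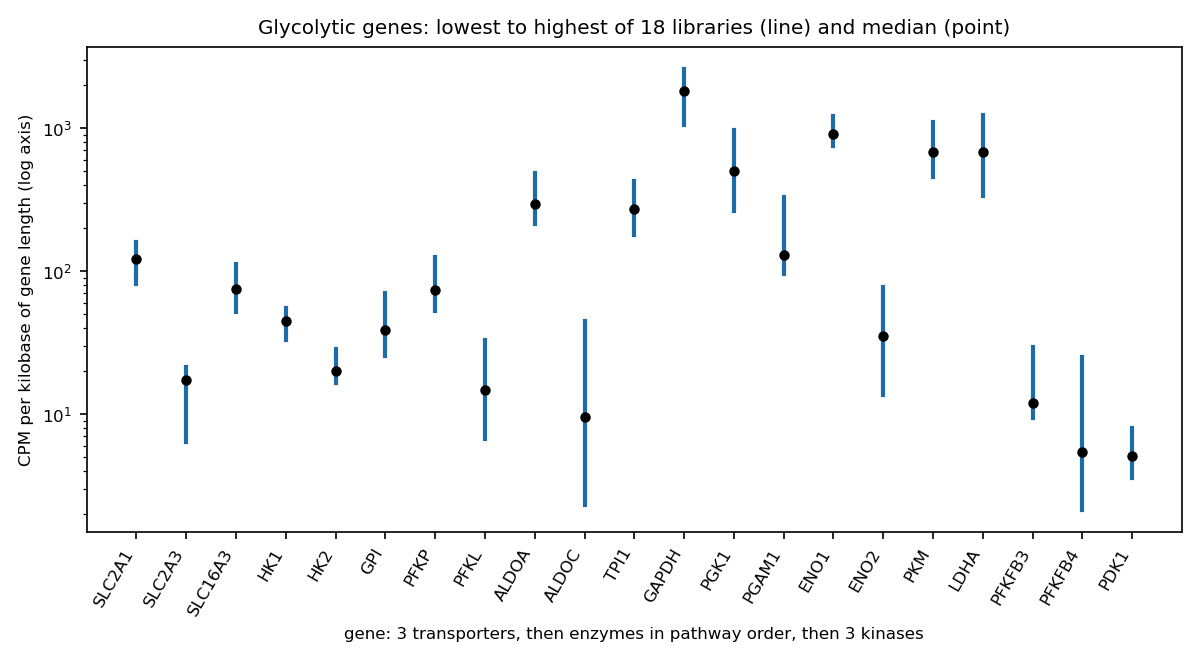
CPM per kilobase of gene length on a log axis for the 21 glycolytic genes, with a line from the lowest to the highest of the 18 libraries and a point at the median. ENO1, HK1 and HK2 span the narrowest ranges, and ALDOC, PFKFB4, ENO2 and PFKL the widest.

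Among the transporters, SLC2A1 (Entrez gene 6513) read 336, 509 and 457 CPM in Jag1WT against 299.5, 465 and 439 CPM in Jag1KO. In Jag1KO + rescue it was at 304, 541 and 466 CPM, in Jag1KO + ctrl at 589, 508 and 478 CPM, in siCtrl at 364, 491 and 398 CPM and in siJag1 at 323, 336 and 382 CPM, with overlap in all 3 pairs. SLC2A3 (Entrez gene 6515) read 78.8, 68.3 and 75.6 CPM in Jag1WT against 61.7, 40.5 and 37.5 CPM in Jag1KO. In the rescue pair it read 83.5, 60.2 and 83.5 CPM with Jagged1 cDNA and 62.8, 25.2 and 68.2 CPM with the empty plasmid, and in the siRNA pair 79.8, 68.0 and 77.1 CPM in siCtrl and 80.6, 36.1 and 77.3 CPM in siJag1. It was lower in all Jag1KO than in all Jag1WT libraries, and low in Jag1KO + ctrl replicate 2 and siJag1 replicate 2. SLC16A3 (Entrez gene 9123), the MCT4 transporter that exports lactate, read 291, 414 and 415 CPM in Jag1WT against 298, 322 and 364 CPM in Jag1KO. The value was 228, 308 and 262 CPM in Jag1KO + rescue and 496, 489 and 385 CPM in Jag1KO + ctrl, and 338, 402 and 338 CPM in siCtrl and 275, 272 and 298 CPM in siJag1. All siCtrl libraries were above all siJag1 libraries for SLC16A3, and all rescue libraries below all Jag1KO + ctrl libraries.

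Of the enzymes of the early steps, HK2 (Entrez gene 3099), a hexokinase, read 139.6, 177 and 118 CPM in Jag1WT against 131, 165 and 134 CPM in Jag1KO. Jag1KO + rescue gave 155, 196 and 154 CPM and Jag1KO + ctrl 206, 144 and 121 CPM, while siCtrl gave 136, 180.3 and 144 CPM and siJag1 133, 134 and 146 CPM, with overlap in every pair. PFKL (Entrez gene 5211), a phosphofructokinase, read 49.2, 64.3 and 80.5 CPM in Jag1WT against 47.2, 66.3 and 76.7 CPM in Jag1KO. In Jag1KO + rescue it was at 27, 49.6 and 38.0 CPM, in Jag1KO + ctrl at 117, 133 and 69.4 CPM, in siCtrl at 52.2, 68.9 and 55.7 CPM and in siJag1 at 41.8, 65.7 and 45.6 CPM. Its 3 Jag1KO + ctrl libraries, replicate 3 included, lay above its 3 rescue libraries. ALDOC (Entrez gene 230), the minor aldolase here, read 8.08, 17.3 and 14.7 CPM in Jag1WT against 3.98, 24.4 and 24.5 CPM in Jag1KO. In the rescue pair it read 4.77, 25.4 and 15.8 CPM with Jagged1 cDNA and 77.6, 68.7 and 25.3 CPM with the empty plasmid, and in the siRNA pair 7.78, 17.0 and 10.1 CPM in siCtrl and 7.65, 19.0 and 6.5 CPM in siJag1, and its replicates differed up to 6.15-fold within 1 condition, Jag1KO.

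Of the enzymes of the later steps, LDHA (Entrez gene 3939), lactate dehydrogenase A, read 1244, 1705 and 1806 CPM in Jag1WT against 852, 1866 and 2065 CPM in Jag1KO. The value was 947, 1986 and 1669 CPM in Jag1KO + rescue and 2752, 3154 and 1791 CPM in Jag1KO + ctrl, and 1145, 1838 and 1475 CPM in siCtrl and 1053, 2197 and 951 CPM in siJag1, with overlap in all 3 pairs. PGAM1 (Entrez gene 5223), a phosphoglycerate mutase, read 213, 263 and 249 CPM in Jag1WT against 165, 256 and 279.9 CPM in Jag1KO. Jag1KO + rescue gave 173, 215 and 219 CPM and Jag1KO + ctrl 484, 569.8 and 227 CPM, while siCtrl gave 219, 249 and 210.1 CPM and siJag1 195, 360.1 and 204 CPM. The lowest PGAM1 value of Jag1KO + ctrl was just above the highest of the rescue. ENO2 (Entrez gene 2026), the neuronal enolase, read 72.3, 90.1 and 128 CPM in Jag1WT against 45.6, 84.7 and 85.5 CPM in Jag1KO. In Jag1KO + rescue it was at 33.2, 85.5 and 81.1 CPM, in Jag1KO + ctrl at 184, 187 and 98.5 CPM, in siCtrl at 66.8, 85.9 and 69.3 CPM and in siJag1 at 56.7, 99.7 and 52.2 CPM. ENO1, by contrast, stayed between 2442 and 3933 CPM over all 18 libraries and HK1 between 166 and 278 CPM. The other enzymes, GPI, PFKP, ALDOA, TPI1, GAPDH, PGK1 and PKM, had a highest library 2.29 (ALDOA) to 3.67 times (PGK1) their lowest.

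Of the flux kinases, PFKFB4 (Entrez gene 5210), which makes the activator of phosphofructokinase, read 31.3, 33.4 and 33.1 CPM in Jag1WT against 20.8, 30.0 and 23.7 CPM in Jag1KO. In the rescue pair it read 11.2, 34.6 and 19.9 CPM with Jagged1 cDNA and 129.6, 104 and 25.2 CPM with the empty plasmid, and in the siRNA pair 26.0, 35.0 and 19.6 CPM in siCtrl and 20.4, 38.3 and 13.6 CPM in siJag1. All its Jag1WT libraries were above all Jag1KO libraries, and its Jag1KO + ctrl replicates 1 and 2 were far above everything else. PDK1 (Entrez gene 5163) read 33.3, 35.5 and 42.5 CPM in Jag1WT against 24.4, 34.6 and 34.2 CPM in Jag1KO. The value was 27.3, 41.3 and 39.6 CPM in Jag1KO + rescue and 54.8, 49.4 and 37.3 CPM in Jag1KO + ctrl, and 24.9, 35.7 and 32.6 CPM in siCtrl and 26.0, 37.2 and 28.7 CPM in siJag1, with overlap in all 3 pairs. PFKFB3, which makes the same activator as PFKFB4, ranged from 45.7 to 145 CPM, with the highest value in Jag1KO + ctrl replicate 1.

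No glycolytic gene was called by the main fit in any of the 3 comparisons of more against less JAG1. In Jag1WT against Jag1KO 17 of 21 had the higher mean in Jag1WT, but the median log2 fold change was 0.04 and the direction depended on single libraries. It turned to −0.12, with 6 of 21 higher, without Jag1KO replicate 1, and to −0.02, with 8 of 21, without Jag1WT replicate 2. Of the enzymes, ENO2 was at 0.43 ± 0.28 and ALDOC at −0.40 ± 0.59, and GAPDH was at 0.06 ± 0.25, PGK1 at 0.00 ± 0.31, LDHA at −0.01 ± 0.32, PKM at 0.05 ± 0.18 and HK2 at 0.01 ± 0.16. SLC2A3, the largest at 0.67 ± 0.18 (adjusted p = 0.271), and PFKFB4 (0.39 ± 0.16) had an unadjusted p below 0.05 and groups that did not overlap, both higher in Jag1WT, which is 2 of 21 against 4.32% and 7.24% of all genes. With same-numbered libraries blocked, edgeR called SLC2A3 alone of the list, and 145 of 12879 genes higher. Without Jag1KO replicate 1, in a fit with no block, SLC2A3 was also called, at 0.91 (adjusted p = 0.00269). ALDOC, at −0.40 with this library, was then at −0.88 (adjusted p = 0.0629). In siCtrl against siJag1 the median was 0.09, with 17 of 21 higher in siCtrl. In fits without a block, 9, 10 and 9 of 21 were higher without siCtrl replicate 2, siJag1 replicate 1 or siJag1 replicate 3 (medians −0.07, −0.04 and −0.05). Each of these fits left a library without its same-numbered partner. With all libraries kept and same-numbered ones blocked, 19 of 21 were higher. The median was then 0.15 and the lowest adjusted p 0.536 (edgeR). Without siJag1 replicate 2, also with no block, the median was 0.29, with 11 of 21 at an unadjusted p below 0.05. At that level 481 of 12774 genes were higher, and there was again no call. With all libraries, only SLC16A3 (0.36 ± 0.11, adjusted p = 0.970) had an unadjusted p below 0.05 and groups apart, 1 of 21 against 2.6% and 5.15% of all genes.

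In Jag1KO + rescue against Jag1KO + ctrl 19 of 21 had the lower mean in the rescue, with a median log2 fold change of −0.71, and SLC2A3 and HK2 were the exceptions. PFKFB4 (−1.97 ± 0.61), ALDOC (−1.90 ± 0.61), PFKL (−1.48 ± 0.30), ENO2 (−1.23 ± 0.38) and PGAM1 (−1.08 ± 0.31) had the largest log2 fold changes, with adjusted p between 0.104 and 0.112. The core enzymes were closer to 0, with PGK1 at −0.93 ± 0.33, PKM at −0.89 ± 0.26, LDHA at −0.75 ± 0.32, GAPDH at −0.66 ± 0.27 and ENO1 at −0.40 ± 0.18. An unadjusted p below 0.05 was found for 13 of 21 lower in the rescue and for none higher, against 16.4% and 14.4% of all genes. The groups did not overlap downwards for 7 of 21 (SLC16A3, PFKL, ALDOA, PGAM1, ENO1, ENO2 and PKM), against 16%.

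The calls in the rescue pair differed with the tool and with Jag1KO + ctrl replicate 3. DESeq2 called 3 HIF targets and 8 glycolytic genes lower in the rescue, against 7.74% of all genes, and 1 edgeR fit of all 18 libraries called 5 and 9, against 10.7%. Without Jag1KO + ctrl replicate 3 edgeR called 4 HIF targets (NDRG1, EGLN3, CA12 and ANKZF1) and 14 glycolytic genes, LDHA (−0.94), GAPDH (−0.81) and PGK1 (−1.14) among them, against 15% of all genes. EPAS1 was called higher in the rescue by all 3. When the rescue was instead set against replicate 3 alone, with the other libraries in 1 fit, no member was called, and the median log2 fold changes were −0.25 for HIF targets and −0.22 for glycolytic genes. That fit assumes that the lone library varies like the others. CA9 was then at −0.90, PFKFB4 at −0.23 and EPAS1 at 0.58.

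Jag1KO + ctrl also stood above the Jag1KO cells from which it was made, although JAG1 was not changed on purpose between them. All 16 HIF targets and all 21 glycolytic genes had the higher mean in Jag1KO + ctrl, with median log2 fold changes of 0.60 and 0.48 against −0.01 over 12956 genes, of which 6215 were higher. CA9 was at 2.32 ± 0.97, EGLN3 at 1.97 ± 0.66, PFKFB4 at 1.78 ± 0.52 and ALDOC at 1.69 ± 0.66. HIF1A (−0.68 ± 0.19) and EPAS1 (−0.44 ± 0.19) lay the other way, with groups that did not overlap, against 4.01% of all genes lower. No member was called, nor was any other gene (0% by edgeR, where, with an unadjusted p below 0.05, 482 genes were higher and 271 lower, and DESeq2 called 12 and 1, none of them a member). The unadjusted p was below 0.05 for 10 HIF targets and 8 glycolytic genes higher in Jag1KO + ctrl, against 3.72% of all genes, and the groups stood apart upwards for 4 and 6, against 6.05%. With replicate 3 as the only Jag1KO + ctrl library, in 1 fit of 16 libraries that was also chosen after seeing the data, all 16 HIF targets still had the higher mean, with a median of 0.36, but 13 of 21 glycolytic genes did, with a median of 0.12, and no member had an unadjusted p below 0.05. Without replicate 3 EGLN3, ANKZF1, PFKFB4 and NDRG1 were called, against 0.934% of all genes. This comparison shares its Jag1KO + ctrl libraries with the rescue pair, so that both carry the same 2 high libraries. With Jag1KO in place of Jag1KO + ctrl as the baseline of the rescue, an alternative chosen after these levels had been seen, the median log2 fold change was 0.15 for HIF targets and −0.15 for glycolytic genes, and no member was called. BHLHE40 (0.85), SLC2A3 (0.68) and EPAS1 (0.42) were then higher in the rescue and PFKL (−0.75) lower, each with an adjusted p of at least 0.209. In the other comparison without a planned change of JAG1, siCtrl against Jag1WT, the medians were −0.16 and −0.08, and edgeR again called 0% of all genes (70 higher and 106 lower at an unadjusted p below 0.05, and 0 and 0 called by DESeq2). When same-numbered libraries were blocked, 616 genes were higher and 606 lower at that p, among them 5 HIF targets and 4 glycolytic genes lower in siCtrl, and 1 gene, no member, was called lower.

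The opposite order in the parental and rescue pairs was tested as the difference of both effects over 12 libraries. No member passed (edgeR adjusted p below 0.05, passed by 0.547% of 12804 genes), but ANKZF1 (1.67 ± 0.35, adjusted p = 0.0568), CA12 (2.82 ± 0.66, 0.0612) and SLC16A3 (0.99 ± 0.25, 0.0730) came nearest. DESeq2 called 8 members, all with the larger effect in the parental pair, against 4.59% of all genes, and edgeR without Jag1KO + ctrl replicate 3 called 13, against 9.59%. With replicate 3 as the only Jag1KO + ctrl library no member passed, the lowest adjusted p was 0.216, and ANKZF1 was at 0.89 and CA12 at 1.70. For the difference between the knockout and the siRNA effects no member passed either, with every adjusted p at least 0.999 and 0.11% of 12765 genes passing. The log2 difference was 0.93 ± 0.46 for CA12 and −0.89 ± 1.38 for CA9, and with standard errors of this size the absence of a call does not show that the effects were alike.

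Levels also differed between replicates of 1 condition in a shared way. Glycolytic genes were lowest in replicate 1 for 18 of 21 in Jag1WT, 19 in Jag1KO, 18 in Jag1KO + rescue and 17 in siCtrl, where replicate 1 held the lowest value of 30.7%, 41.3%, 40.3% and 36.3% of all genes tested. In siJag1 replicate 1 was lowest for 10 and replicate 3 for 9 of 21. In Jag1KO + ctrl replicate 3 was lowest for 20 of 21, against 43.6% of all genes. The HIF targets were lowest in replicate 1 for 8 of 16 in Jag1WT, 9 in Jag1KO, 12 in Jag1KO + rescue, 7 in siCtrl and 2 in siJag1. Over all 18 libraries, the highest value lay in Jag1KO + ctrl replicate 1 or 2 for 12 of 16 HIF targets and 20 of 21 glycolytic genes, against 22.4% of all genes. Replicate 1 held it for all 12 of these HIF targets and for 8 glycolytic genes, against 9.01% of all genes. Replicate 2 held it for 0 HIF targets and 12 glycolytic genes, against 13.4%. The mean log2(CPM + 1) of the 97 S and G2/M genes, which are expressed in dividing cells, was 4.14, 4.91 and 4.10 in Jag1WT, 4.11, 5.55 and 5.67 in Jag1KO, 4.18, 5.02 and 4.24 in Jag1KO + rescue, 5.72, 6.09 and 4.41 in Jag1KO + ctrl, 4.18, 5.10 and 4.48 in siCtrl and 4.32, 6.07 and 4.41 in siJag1. The mean of the glycolytic genes on that scale was 7.82, 8.16 and 8.14 in Jag1WT, 7.5, 8.12 and 8.11 in Jag1KO, 7.47, 8.10 and 7.91 in Jag1KO + rescue, 8.80, 8.72 and 8.07 in Jag1KO + ctrl, 7.81, 8.18 and 7.88 in siCtrl and 7.68, 8.15 and 7.67 in siJag1. For the HIF targets it was 5.85, 6.07 and 6.27 in Jag1WT, 5.36, 5.93 and 5.87 in Jag1KO, 5.22, 6.19 and 5.98 in Jag1KO + rescue, 7.01, 6.48 and 6.13 in Jag1KO + ctrl, 5.78, 6.07 and 5.91 in siCtrl and 5.62, 5.74 and 5.59 in siJag1. The library with the highest S and G2/M mean of its condition also had the highest glycolytic mean, except in Jag1KO and Jag1KO + ctrl, where the first- and second-ranked libraries changed places. In the 3 pairs 94, 89 and 93 of the 97 S and G2/M genes had a lower mean with more JAG1, with median log2 fold changes of −1.01, −1.12 and −0.59 in the parental, rescue and siRNA pair. In the same order, 29, 40 and 0 were lower at an unadjusted p below 0.05 (edgeR). This compares with 577 of 12879, 2106 of 12850 and 157 of 12774 genes. The groups stood apart downwards for 19, 4 and 1 of the 97, against 6.58%, 16% and 5.32% of all genes. By the list mean, only siJag1 replicate 2 lay above all siCtrl libraries. The part of proliferation in the levels of these genes was not tested.

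**Figure D5:**
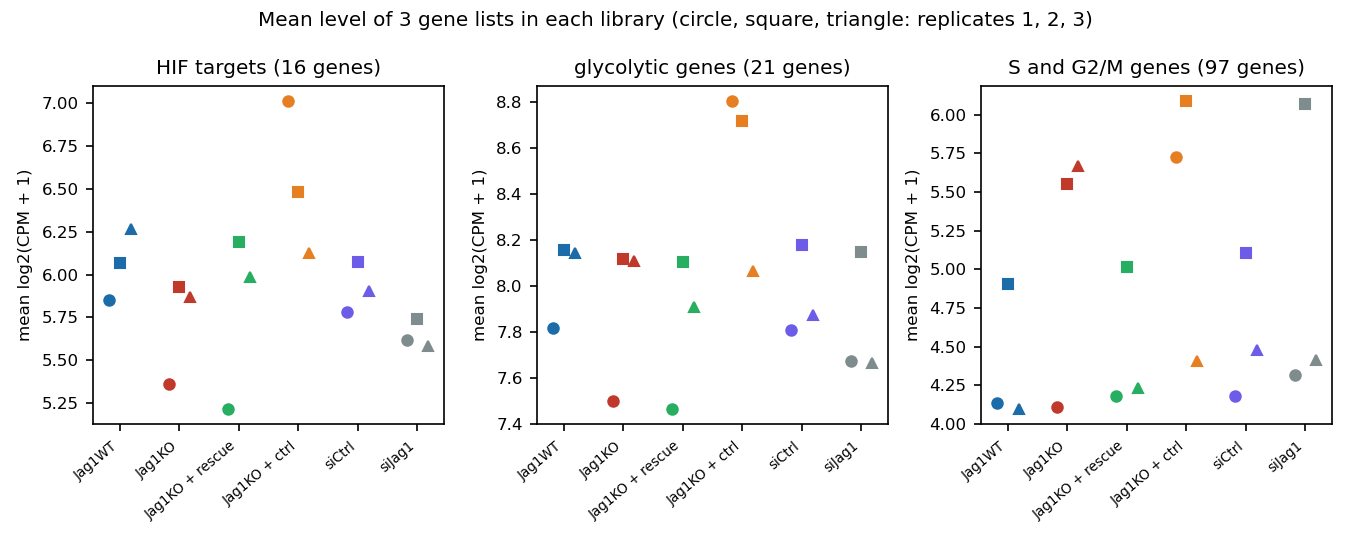
Mean log2(CPM + 1) over the 16 HIF targets, the 21 glycolytic genes and 97 genes of S phase and of G2/M in each library, by condition and with symbols for replicates 1 to 3. Jag1KO + ctrl replicates 1 and 2 are highest in the first and second panels, and siJag1 replicate 2, high in the third, is high in the second panel but not the first among siRNA libraries.

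Other genes of both pathways, listed by hand, were described in the same way. Of 25 other hypoxia genes 23 were tested in the parental pair, with 15 higher in Jag1WT, a median of 0.11 and no call. With the plasmids, 16 of 23 were lower in the rescue (median −0.28) and in the siRNA pair 18 of 23 were higher in siCtrl (median 0.14), again with no call. Of 22 other glycolysis genes 17 or 18 were tested, with medians of 0.01, −0.23 and −0.06 in the same order and no call. An unadjusted p below 0.05 was found in the parental pair for 4 of the 23 hypoxia genes, all higher in Jag1WT, against 4.32% of all genes. In the siRNA pair it was found for 2, higher in siCtrl, against 2.6%. For the rescue it was found for 5 lower and 1 higher, against 16.4% and 14.4%. Of the genes named next, chosen after their values were seen, P4HA2, a subunit of collagen prolyl hydroxylase, had log2 fold changes of 0.57 in the parental, 0.26 in the siRNA and −0.49 in the rescue pair (edgeR, unadjusted p = 0.00611, 0.0306 and 0.0664). AK4, a mitochondrial adenylate kinase, was at 0.52, 0.24 and −1.04 in the same order of pairs (edgeR, unadjusted p = 0.0193, 0.297 and 0.0193). PDK4, a kinase that acts on the same enzyme as PDK1, was at 0.88, 0.91 and −0.53 (edgeR, unadjusted p = 0.0467, 0.00752 and 0.143). SLC16A1, the MCT1 lactate transporter, was at −0.70, 0.08 and 1.05 (edgeR, unadjusted p = 0.0144, 0.731 and 0.0669). HKDC1, a hexokinase-like gene, was at 0.03, 1.32 and 1.45 (edgeR, unadjusted p = 0.927, 0.00128 and 0.0774). Set against Jag1KO, Jag1KO + ctrl had a higher mean for 17 of the 23 hypoxia genes, 10 of them with an unadjusted p below 0.05 against 3.72% of all genes, which is the direction of the 16 HIF targets in the same libraries.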

How the data were processed

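Polyadenylated RNA of MDA-MB-231 cells grown in 3D Matrigel was sequenced in 18 libraries, 3 in each of 6 conditions. According to the study's methods and the submitters' processing notes, the authors aligned reads to hg38, counted uniquely mapped reads per gene with featureCounts and normalized them by TMM with edgeR 3.28.0 in R 3.6.1. The aligner is not given in the sources used here. The deposited tables hold raw counts per gene, CPM on TMM-scaled library sizes and RPKM. Gene lengths were read from the ratio of deposited CPM to deposited RPKM. Total counts per library were 10330581 to 18327890 (median 15168046), and intervals from counts would cover counting error only. In the deposited RPKM values 3 columns carry names that match no sample's labels and were not used, and 292 genes without a symbol (at most 0.0442% of counts) were left out.

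Counts were tested with edgeR's quasi-likelihood test (edgeR 4.0.16, R 4.3.3, TMM) on the 6 libraries of each pair, after a filter that kept genes with more than 1 CPM in 3 or more libraries. Calls needed a Benjamini-Hochberg adjusted p below 0.05 over all genes tested and a fold change above 1.5. Fold changes are those of the group named first over the second, which is more JAG1 over less in the 3 main pairs. Differences of effects were tested as interaction contrasts over 12 libraries, for genes above 1 CPM in at least 6. Exact permutation of 3 samples against 3 allows no two-sided p below 0.1, so it was not used. The study tested log2(CPM + 1) with another tool, and that scale was tried here with limma 3.58.1. Other alternatives were DESeq2 1.42.0, its size factor method within edgeR, no filter, a replicate block, 1 fit of all libraries and leaving out each library. The scripts were tested on simulated counts.

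The members and lists were chosen with earlier results of these data known. Values in every library are given for members among the 10 largest log2 fold changes of each pair and for HIF1A, EPAS1, CA9, SLC2A1, HK2, LDHA and PDK1. Other pathway genes were to be named only if called, and those named without a call were chosen after their values were seen. S and G2/M genes are those shipped with Seurat 5.3.0. Libraries that share a replicate number deviated together in the siRNA pair (correlations of deviations from group means of 0.543, 0.522 and 0.264, over 12774 genes) and in siCtrl against Jag1WT (0.595, 0.713 and 0.21), so the numbers were taken to pair these samples. They did not in all replicates of the parental pair (0.632, 0.667 and −0.0137) or the rescue pair (−0.207, 0.345 and 0.242). The main fits of all comparisons were not blocked by replicate number. Standard errors and p-values of the siRNA pair and of siCtrl against Jag1WT thus leave the pairing out unless the block is named.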

Additional observations from a re-analysis of the deposited data

Results flagged for a closer look

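CA12 and ANKZF1 differed in direction between the parental and the rescue pair in every library. All 3 Jag1WT libraries were above all 3 Jag1KO libraries, and all 3 Jag1KO + rescue libraries were below all 3 Jag1KO + ctrl libraries. The difference of the log2 effects was 2.82 for CA12 (edgeR adjusted p = 0.0612) and 1.67 for ANKZF1 (edgeR adjusted p = 0.0568), so neither passed the threshold over 12804 genes. In both genes Jag1KO + ctrl replicates 1 and 2 were the highest of all 18 libraries, and replicate 3 lay just above the rescue libraries, at 13.2 CPM against a highest rescue value of 12.9 CPM for CA12 and at 30.5 against 25.5 CPM for ANKZF1.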

How the results depend on the processing

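No called value changed sign under any alternative run, although uncalled medians did: that of the HIF targets in the rescue pair with Jag1KO as the baseline, and those of the glycolytic genes, which ran without 1 library from −0.12 to 0.19 in the parental and from −0.07 to 0.29 in the siRNA pair. DESeq2's size factors within edgeR, edgeR calls without the fold threshold and limma on log2(CPM + 1) changed no member's call. In Jag1WT against Jag1KO, DESeq2 called 1 HIF target and a replicate block 1 HIF target (CA12) and 1 glycolytic gene (SLC2A3), where edgeR called 0, and EPAS1 had an adjusted p of 0.00440 and 0.0133 with a fold under 1.5. Leaving out 1 library gave 0 to 1 HIF targets and 0 to 1 glycolytic genes, the calls coming without Jag1KO replicate 1. In Jag1KO + rescue against Jag1KO + ctrl, DESeq2 called 3 HIF targets and 8 glycolytic genes lower, all 18 libraries in 1 fit 5 and 9, and leaving out 1 library 0 to 4 and 0 to 14, the calls coming without Jag1KO + ctrl replicate 3. The medians of HIF targets and glycolytic genes, −0.58 and −0.71, were 0.15 and −0.15 with Jag1KO as the baseline and −0.25 and −0.22 with Jag1KO + ctrl replicate 3 alone, both alternatives chosen after seeing the data. In Jag1KO + ctrl against Jag1KO, leaving out 1 library gave 0 to 3 HIF targets and 0 to 1 glycolytic genes, and with replicate 3 alone the glycolytic median was 0.12 in place of 0.48. For the difference of effects between the parental and rescue pairs, DESeq2 called 8 members, no filter 2 and leaving out 1 library 0 to 13. The block changed no member's call in the siRNA pair or in siCtrl against Jag1WT. The cause of these changes was not tested.

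Over all genes, edgeR called 53 higher and 39 lower in the parental pair, against 116 and 119 with DESeq2, 145 and 137 with the block, 86 and 71 without a filter and 1 and 7 to 335 and 617 without 1 library. In the rescue pair 1 gene was called, against 572 higher and 995 lower with DESeq2 and 772 and 1361 in 1 fit of all libraries and 1798 and 1928 without Jag1KO + ctrl replicate 3, and in the siRNA pair 2, against 22 and 3 with DESeq2. Of the named members' fold changes, 181 stayed on their side of the threshold under other settings and 168 without 1 library, whereas 19 and 12 came to pass it. CA9, at 5 reads in its lowest library, is the member most limited by depth.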
